A study of Caenorhabditis elegans with 16 samples.

Results

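Starvation for 6 hr was examined in *alfa-1(ok3062)*, a Caenorhabditis elegans strain that carries a deletion in *alfa-1*, the worm ortholog of C9orf72. The comparison took the 4 starved arrays of this strain against its 4 well-fed arrays, 8 of the 16 arrays of the series, and 25498 genes were measured in it, each by 1 probe set. The other 8 arrays, 4 of starved and 4 of well-fed N2, the wild-type strain, were used to ask where the mutant differed in its response. RNA came from whole worms, so that fewer cells of a type and less RNA per cell cannot be told apart in any result given here.

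A worm that loses its food stops taking nutrients up through the intestine, which is also its main store of fat, and lives on that store. The insulin receptor DAF-2 restrains the transcription factor DAF-16 in fed worms. The kinase complex TORC1 answers to amino acids at the lysosome, AMP-activated kinase answers to low energy, and the factors NHR-49 and HLH-30 act on genes of fat breakdown and of lysosomes. C9orf72 in mammals acts in a complex with SMCR8 and WDR41, found at lysosomes under amino acid starvation. The results are ordered from the largest changes through fat and sugar metabolism, lysosomes and nutrient signals, stress and defence to cuticle, muscle and germ line.

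The well-fed and starved worms of *alfa-1(ok3062)* share the deletion allele ok3062 and differ in food. In the labels the worms are L3 larvae and the well-fed ones are described as kept for 6 hr in M9 buffer with food, whereas the methods give L3/L4 larvae and freeze the well-fed worms at once. If the methods hold, food, 6 hr of age and time in buffer cannot be told apart. The strain names differ too, IW313 and IW314 in the labels and RB2260 and N2 in the methods. Worms of a strain were divided among tubes, and separate cultures are not mentioned for the 4 arrays of a group, so each p-value rests on the spread among these arrays, which may be no more than technical. The deposited values are log2 values made by RMA, in which 1 unit is a doubling of signal, and all differences below are starved minus well-fed on that scale, tested with limma on all 16 arrays and adjusted by the Benjamini-Hochberg method over all genes. A gene was said to have risen or fallen at an adjusted p under 0.05.

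The probe set of *alfa-1* had log2 values of 7.39, 7.56, 7.67 and 7.45 in the starved arrays, against 7.62, 7.63, 7.59 and 7.57 in the well-fed arrays of the mutant. In N2 they were 9.50, 9.23, 9.59 and 9.30 in starved and 9.21, 9.39, 9.11 and 9.28 in well-fed arrays, above every array of the mutant. Within the mutant *alfa-1* differed by -0.09 (standard error 0.0926, adjusted p = 0.540), which did not pass the test. Where its probes lie relative to the deletion was not known here. The starved arrays were more spread than the well-fed ones, with a median SD of a gene of 0.168 in starved and 0.135 in well-fed mutant worms. Starved replicates 1 and 2 stood furthest from the mean of the other 3 starved arrays, with 235 and 180 genes more than 1 unit away from it, against 33 and 21 genes for replicates 3 and 4 and 11 to 23 genes for the well-fed arrays.

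Of 25498 genes, 2791 rose (10.9%) and 3649 fell (14.3%) in starved *alfa-1(ok3062)* worms. Among those that rose, 560 did so by more than 1 unit and 80 by more than 2. Among those that fell, 234 did so by more than 1 unit and 3 by more than 2, so the largest changes were mostly rises although more genes fell. The 4 starved arrays all lay above the 4 well-fed arrays in 2987 genes (11.7%) and all lay below in 4008 (15.7%). Over all genes the median difference was -0.0161. When the arrays were normalized again by cyclic loess, 3489 genes rose and 3018 fell, so that 53.6% of the calls were rises against 43.3% as deposited, and the excess of falls holds only for the other scalings. Leaving out 1 of the 8 mutant arrays gave 2143 to 2820 rises and 2847 to 3725 falls, and 4085 of the 6440 calls were made in each of these 8 fits.

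**Figure D1:**
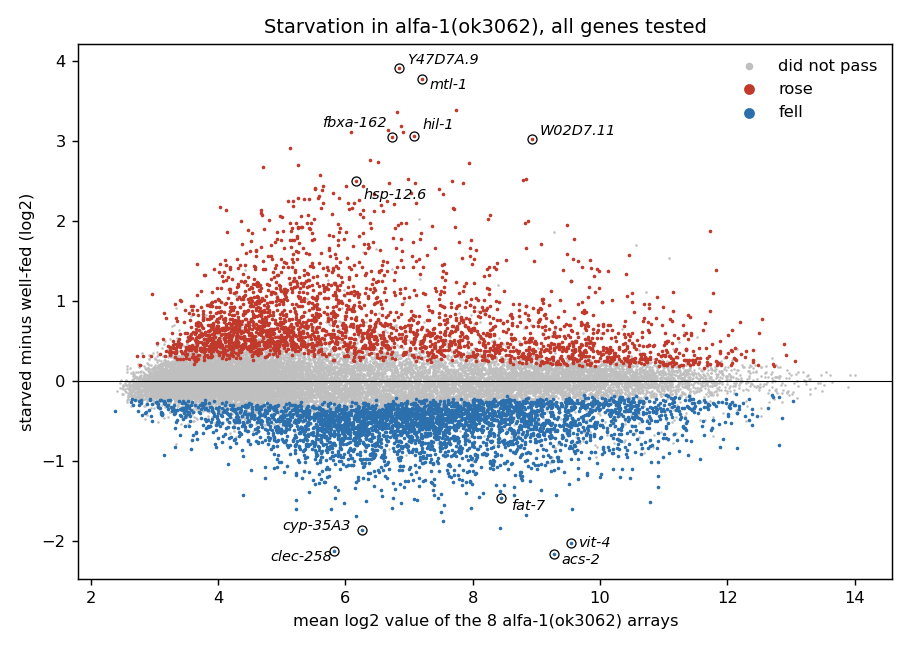
Each point is 1 of 25498 genes, with the mean log2 value of the 8 *alfa-1(ok3062)* arrays on the x axis and the log2 difference of starved minus well-fed worms on the y axis. Red points rose and blue points fell at an adjusted p under 0.05 (limma), grey points did not pass, and circled genes are named. Rises reach 3.91 and falls reach -2.17.

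The largest rises comprised genes whose 4 starved arrays lay close together and genes whose starved arrays were far apart. Among the 20 largest, 4 had a starved SD under 0.35 and 15 one over 0.5. The first kind was led by *mtl-1*, a metallothionein gene whose product binds metal ions and which is known as a target of DAF-16. Its log2 values were 9.35, 8.85, 9.40 and 8.75 in the starved arrays, against 5.25, 5.29, 5.71 and 5.02 in the well-fed arrays, a difference of 3.77 (standard error 0.226, adjusted p = 9.57e-08). The linker histone gene *hil-1* had 8.68, 8.23, 8.99 and 8.57 in the starved arrays, against 5.70, 5.62, 5.52 and 5.36 in the well-fed arrays, a difference of 3.07 (standard error 0.193, adjusted p = 1.24e-07). In both genes the lowest starved array lay more than 2 units above the highest well-fed array. The uncharacterized gene *W02D7.11* had 10.35, 10.66, 10.29 and 10.49 in the starved arrays, against 7.85, 6.95, 7.72 and 7.16 in the well-fed arrays, a difference of 3.02 (standard error 0.195, adjusted p = 1.4e-07). An F-box family gene annotated as a pseudogene, *fbxa-162*, had 8.43, 8.01, 8.40 and 8.19 in the starved arrays, against 5.54, 5.18, 5.25 and 4.86 in the well-fed arrays, a difference of 3.05 (standard error 0.200, adjusted p = 1.55e-07). Genes of the F-box A family resemble each other, so a probe set named for 1 of them may also read others.

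The second kind was led by *Y47D7A.9*, a protein-coding gene with no given function and the largest rise of all. Its log2 values were 7.42, 9.86, 8.52 and 9.40 in the starved arrays, against 4.23, 5.51, 4.97 and 4.87 in the well-fed arrays, a difference of 3.91 (standard error 0.670, adjusted p = 0.000649). Starved replicate 1 was the lowest of its starved arrays and replicate 2 the highest, and this order of arrays recurred. Of the 20 largest rises, 16 had their lowest starved value in replicate 1 and 13 their highest in replicate 2. The nematode-specific peptide gene *nspe-1* had 7.83, 10.41, 9.11 and 9.91 in the starved arrays, against 6.59, 6.28, 6.70 and 6.76 in the well-fed arrays and *nspe-8* had 7.01, 9.55, 8.15 and 9.13 in the starved arrays, against 5.58, 4.83, 5.72 and 5.25 in the well-fed arrays. Their differences were 2.73 (adjusted p = 0.00439) and 3.11 (adjusted p = 0.00434). Genes of the nspe family are near-identical copies, so their values are uncertain as to which member was read. The chemoreceptor-like gene *srt-42* rose by 3.12, and *fbxb-103*, of the F-box B family, rose by 2.57. Of the 20, 13 are annotated as protein-coding, 6 as non-coding RNA and 1 as a pseudogene. The non-coding genes *K02F3.13*, *F45H7.11*, *Y43F8B.26*, *R11D1.14*, *R107.10* and *T27E4.19* rose by 2.52 to 3.38. The uncharacterized protein-coding genes *R11A5.3*, *F09E10.7*, *F48C1.9*, *F44E5.2* and *C49G7.10* rose by 2.53 to 3.37. The shift of the starved arrays was thus unequal across replicates in most of these genes.

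**Figure D2:**
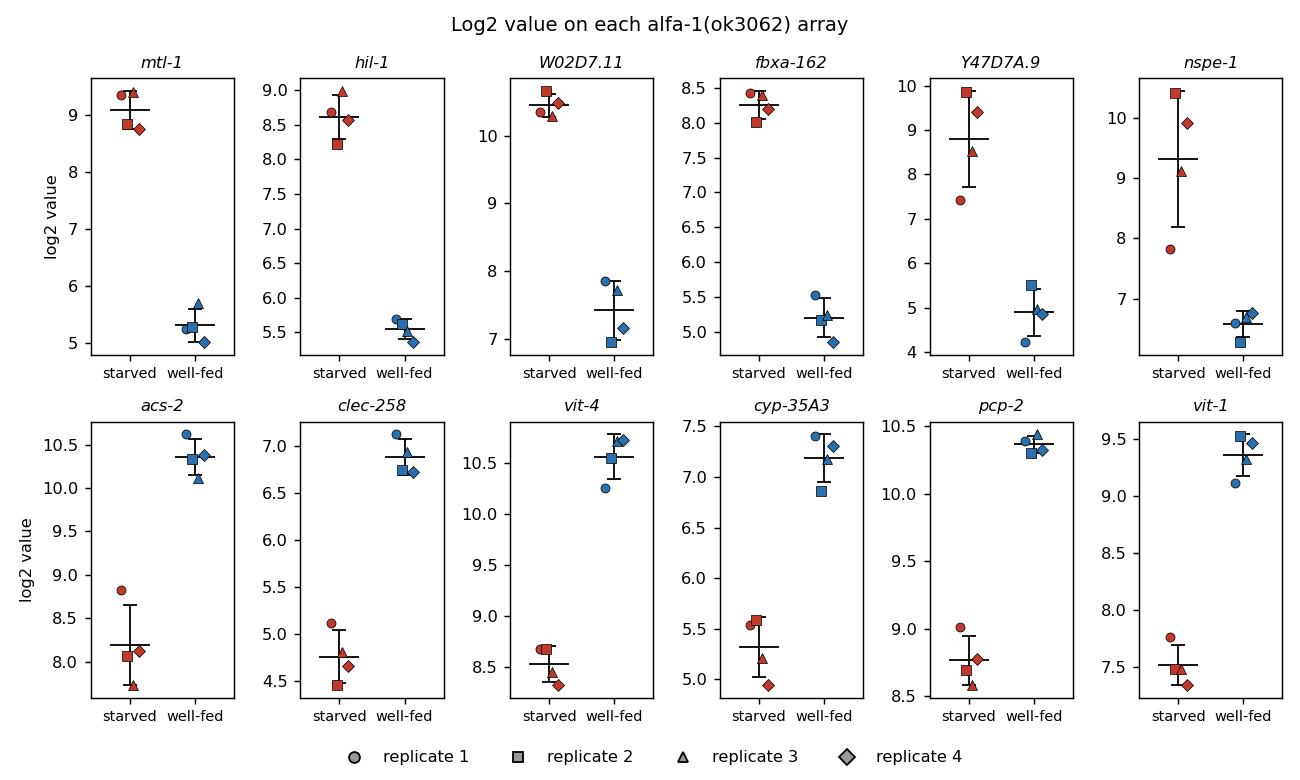
Log2 value on each *alfa-1(ok3062)* array (y axis) for 6 genes that rose (top row) and 6 that fell (bottom row), starved arrays in red at the left of each panel and well-fed arrays in blue at the right. The marker shape gives the replicate and the bars give mean and SD (n = 4). In all 12 genes the starved and well-fed arrays do not overlap, and in *Y47D7A.9* and *nspe-1* the starved arrays span more than 2 units.

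The largest falls were tighter across arrays, with starved SDs between 0.121 and 0.460 for the 20 largest against 0.164 and 1.23 for the 20 largest rises. The largest was that of *acs-2*, which encodes an acyl-CoA synthetase that prepares fatty acids for mitochondrial beta-oxidation and is known as a target of NHR-49. Its log2 values were 8.83, 8.07, 7.74 and 8.13 in the starved arrays, against 10.62, 10.34, 10.11 and 10.37 in the well-fed arrays, a difference of -2.17 (standard error 0.330, adjusted p = 0.000259). Then came *clec-258*, a C-type lectin gene, with 5.12, 4.45, 4.81 and 4.66 in the starved arrays, against 7.13, 6.75, 6.94 and 6.72 in the well-fed arrays and a difference of -2.13 (standard error 0.310, adjusted p = 0.000184). The yolk protein genes *vit-4* and *vit-1* followed. The probe set of *vit-4* had 8.68, 8.67, 8.45 and 8.32 in the starved arrays, against 10.25, 10.55, 10.71 and 10.72 in the well-fed arrays, a difference of -2.03 (standard error 0.261, adjusted p = 7.05e-05), and that of *vit-1* had 7.76, 7.48, 7.48 and 7.34 in the starved arrays, against 9.11, 9.52, 9.32 and 9.46 in the well-fed arrays, a difference of -1.84 (standard error 0.105, adjusted p = 6.04e-08). In each of these 4 genes every starved array lay more than 1 unit below every well-fed array. Other yolk protein genes, *vit-2* and *vit-5*, near-identical copies of *vit-1* and *vit-4*, rose, and their values are given with the germ line.

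The other 16 of the 20 largest falls included cytochrome P450, peptidase and transporter genes and genes of no given function. The cytochrome P450 genes *cyp-35A3* and *cyp-35A5* differed by -1.87 and -1.59 (adjusted p = 0.000101 and 0.000638). The gene *pcp-2*, which encodes a serine carboxypeptidase of the prolylcarboxypeptidase family, had 9.01, 8.70, 8.58 and 8.77 in the starved arrays, against 10.39, 10.30, 10.44 and 10.32 in the well-fed arrays, a difference of -1.6 (standard error 0.101, adjusted p = 1.24e-07). The neprilysin-like metallopeptidase gene *nep-15* differed by -1.6, *abhd-3.2*, of the alpha/beta hydrolase family, by -1.64, and *pmp-5*, an ABC transporter gene of the peroxisomal type, by -1.59. The folate transporter family gene *folt-2* differed by -1.52. The remaining members of the 20 were *F58G6.7*, *Y111B2A.2*, *F55G11.8*, *F59D8.3*, *K08D8.3*, *F09C8.1*, *Y17D7B.10*, *srlf-5* and *C35A5.3*, with differences of -1.75 to -1.49, and all of them passed in N2 as well.

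Genes of fatty acid oxidation fell as a group of single calls. Of 46 measured members of a list on mitochondrial and peroxisomal beta-oxidation, 26 fell, 1 rose and 19 did not pass, where 14.3% of all genes fell. The median difference was -0.31, beside -0.0161 over all genes. Of the 7 acyl-CoA oxidases of this list, which catalyse the first step in the peroxisome, 6 fell, a family counted after values were seen. The gene *acox-1.6* had 8.45, 8.76, 8.34 and 8.51 in the starved arrays, against 9.57, 9.63, 9.32 and 9.39 in the well-fed arrays, a difference of -0.96 (standard error 0.0947, adjusted p = 6.97e-06). The others were *acox-1.4* (-1.03), *acox-1.3* (-0.84), *acox-1.1* (-0.81), *acox-1.2* (-0.80) and *acox-3* (-0.75), and *acox-1.5* differed by -0.15 without passing. The later peroxisomal steps fell too, with *maoc-1* (hydratase) at -0.50, *dhs-28* (dehydrogenase) at -0.63 and *daf-22* (thiolase) at -0.65. These enzymes are known from the shortening of ascaroside pheromones as well as of fatty acids.

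Among the mitochondrial enzymes, acyl-CoA dehydrogenases fell in 9 of 12 measured genes, a family counted after values were seen. For this family and the synthetases below, the shares over all genes were 14.3% for falls and 10.9% for rises. Among those that passed, the largest differences were those of *acdh-1* (-1.33, adjusted p = 0.0318), known from propionate breakdown, *acdh-6* (-1.23) and *acdh-9* (-0.86). The gene *acdh-1* had 10.28, 10.13, 10.47 and 10.07 in the starved arrays, against 11.51, 11.40, 11.78 and 11.59 in the well-fed arrays, with no overlap. In N2 it had 9.93, 10.85, 7.90 and 10.55 in starved and 11.41, 11.80, 11.13 and 11.35 in well-fed arrays, which enter the same estimate of spread, and the call in the mutant was lost in 7 of the 8 fits without 1 mutant array, all but that without starved replicate 3 (adjusted p of up to 0.0744). The hydratase *ech-6*, also of the propionate shunt, differed by -0.67, the hydratase *ech-1.1* by -0.65 and the thiolase *acaa-2* by -0.70. Of the carnitine palmitoyltransferases, which carry fatty acids into mitochondria, *cpt-5* fell by 1.0 (adjusted p = 0.000159) and *cpt-2* differed by -0.25 (adjusted p = 0.0221, and up to 0.0634 without well-fed replicate 1 or 2 or starved replicate 4), whereas *cpt-1* had log2 values of 11.47, 11.96, 11.63 and 11.69 in the starved arrays, against 11.84, 11.71, 11.60 and 11.60 in the well-fed arrays with an adjusted p of 0.993. The single member that rose was *ech-7* at 0.73. The regulators *nhr-49*, *nhr-66* and *nhr-80*, which the list holds, differed by 0.10, 0.04 and 0.11 and did not pass. Of 23 acyl-CoA synthetases, 11 fell and 4 rose, and among the rises *acs-3* had 6.90, 7.38, 7.32 and 7.31 in the starved arrays, against 6.39, 6.43, 6.33 and 6.33 in the well-fed arrays, a difference of 0.86 (standard error 0.131, adjusted p = 0.000270). Without well-fed replicate 1 or starved replicate 4 the rises numbered 2. After *acs-2*, *acs-15* (-0.69) and *acs-22* (-0.44) had the smallest p among those that fell.

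Lipases moved in both directions. Of 31 genes of neutral and lysosomal lipases and their cofactors, 5 rose (10.9% of all genes did) and 7 fell. The fasting-induced lipase genes *fil-1* and *fil-2* were among the rises. For *fil-2* the log2 values were 7.37, 9.80, 8.53 and 9.13 in the starved arrays, against 6.09, 6.37, 6.66 and 6.38 in the well-fed arrays, a difference of 2.33 (standard error 0.527, adjusted p = 0.00448), and for *fil-1* they were 7.18, 6.33, 7.17 and 6.86 in the starved arrays, against 5.93, 5.86, 5.81 and 5.68 in the well-fed arrays, a difference of 1.06 (standard error 0.182, adjusted p = 0.000639). The lysosomal acid lipase gene *lipl-2* rose by 0.84, and *lips-15* and *lips-16* rose by 0.48 and 0.52. In the opposite direction, *lips-14* had 5.16, 5.09, 4.75 and 4.99 in the starved arrays, against 6.20, 6.26, 6.16 and 6.27 in the well-fed arrays, a difference of -1.23 (standard error 0.163, adjusted p = 8.8e-05). The lysosomal lipase gene *lipl-1* had 6.21, 5.66, 5.93 and 5.8 in the starved arrays, against 6.36, 6.88, 6.96 and 6.58 in the well-fed arrays, a difference of -0.79 (standard error 0.139, adjusted p = 0.000748), and *lips-5*, *lips-6* and *lips-7* differed by -0.86, -0.77 and -0.85. The hormone-sensitive lipase gene *hosl-1* differed by -0.44 (adjusted p = 0.000997) and *lipl-5* by -0.24 (adjusted p = 0.0161). The call of *lips-6* was lost without well-fed replicate 1, 2 or 4 or starved replicate 2 or 4 (adjusted p of up to 0.1005) and that of *lipl-5* without well-fed replicate 2 (adjusted p = 0.0519). The adipose triglyceride lipase gene *atgl-1*, which starts the breakdown of stored fat, differed by 0.17 and did not pass (adjusted p = 0.257). The starvation-linked lysosomal lipase genes *lipl-3* and *lipl-4* differed by 0.28 and -0.15 and did not pass either (adjusted p = 0.0659 and 0.698).

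The desaturases of stearic and palmitic acid, which make the first double bond, differed among themselves. The gene *fat-5* had 6.15, 8.14, 7.33 and 7.91 in the starved arrays, against 5.65, 5.44, 5.33 and 5.21 in the well-fed arrays, a difference of 1.98 (standard error 0.376, adjusted p = 0.00140). For *fat-6* the values were 10.24, 10.69, 10.61 and 10.79 in the starved arrays, against 10.05, 9.90, 9.94 and 10.06 in the well-fed arrays, a difference of 0.60 (standard error 0.160, adjusted p = 0.0127). For *fat-7* they were 7.79, 7.85, 7.75 and 7.47 in the starved arrays, against 8.95, 9.31, 9.18 and 9.29 in the well-fed arrays, a difference of -1.47 (standard error 0.319, adjusted p = 0.00347). So *fat-5* and *fat-6* rose and *fat-7* fell, with no overlap between starved and well-fed arrays in any of them. The genes *fat-6* and *fat-7* are close paralogs, and reads of 1 by the probes of the other cannot be told apart here. Among 16 desaturases and elongases 6 fell, of which *elo-4* (-1.23), *elo-9* (-1.06) and *elo-5* (-1.01) are elongases, *elo-5* being needed for branched-chain fatty acids. In a list of fat synthesis and droplet genes 4 of 24 rose (16.7%, beside 10.9% of all genes). Among them were *acl-12* (1.41), of the acyltransferase family, *sbp-1* (0.37), the worm SREBP, and *plin-1* (0.30), which coats lipid droplets. Without well-fed replicate 3 or starved replicate 4 that count was 2, and the call of *sbp-1* was lost without these arrays or starved replicate 2 (adjusted p of up to 0.0622). The diacylglycerol acyltransferase gene *dgat-2*, which makes triglyceride, fell by 0.59 (adjusted p = 0.00218). Of 24 fatty acid binding protein genes 5 rose (20.8%, beside 10.9% of all genes) and 7 fell (29.2%, beside 14.3%). The secreted fatty acid and retinol binding gene *far-3* had 6.47, 7.69, 6.37 and 8.06 in the starved arrays, against 5.54, 5.54, 5.24 and 5.41 in the well-fed arrays, a difference of 1.71 (standard error 0.315, adjusted p = 0.00108), *far-7* rose by 1.2, and the intracellular *lbp-3* fell by 0.61. Without well-fed replicate 1, well-fed replicate 4 or starved replicate 2 the count of rises was 3.

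**Figure D3:**
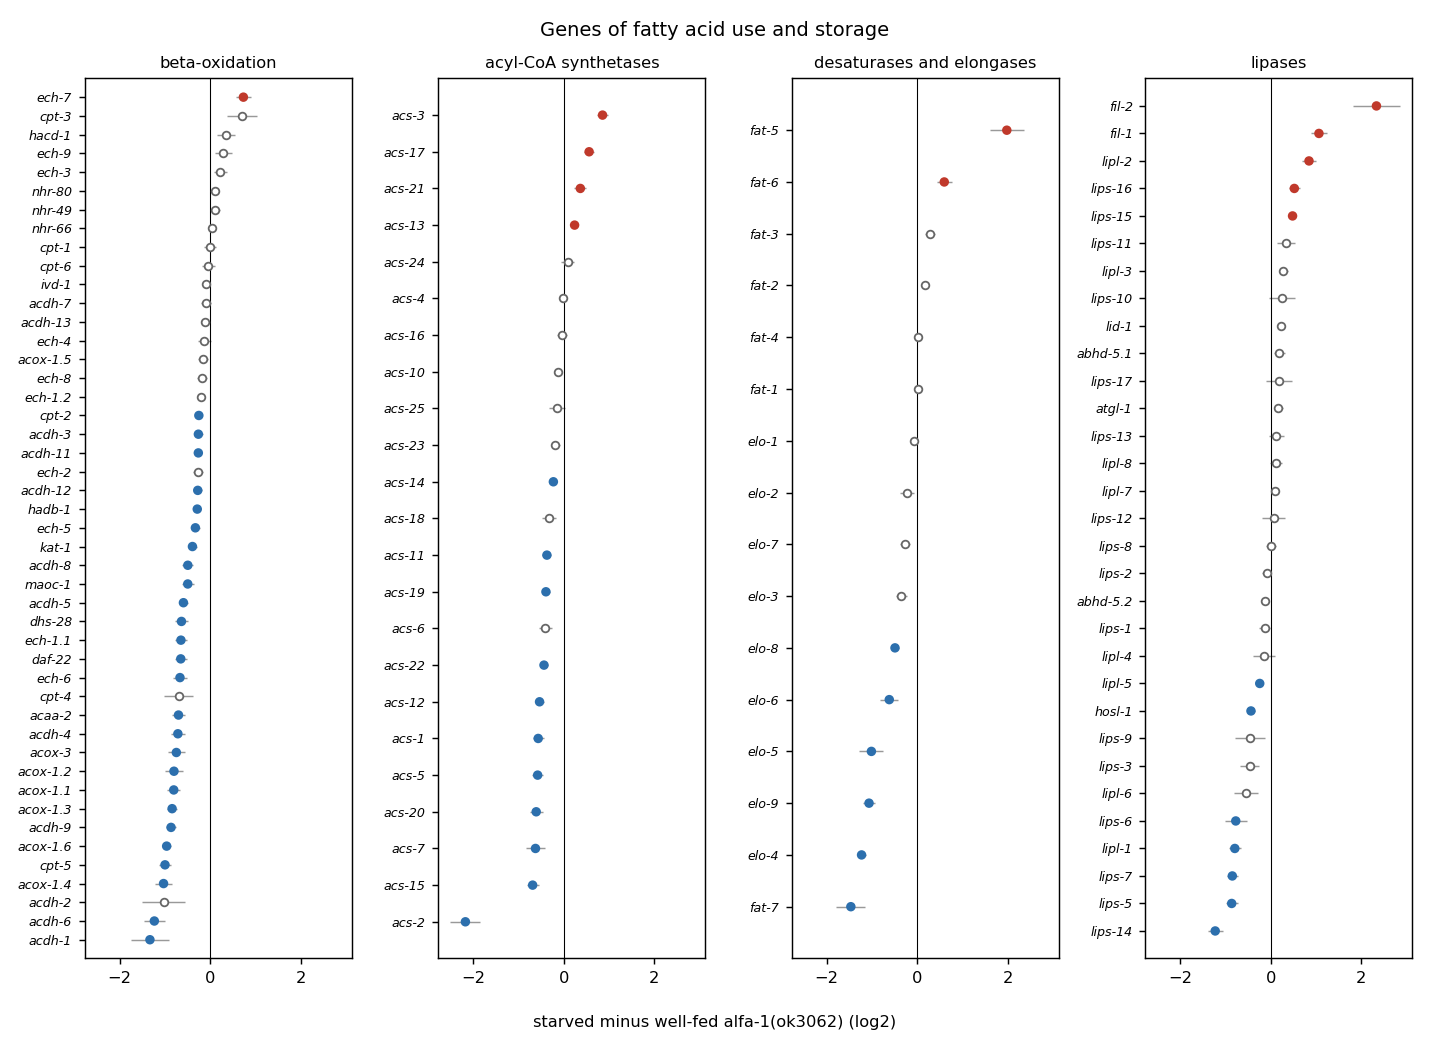
Log2 difference of starved minus well-fed *alfa-1(ok3062)* worms (x axis) for every measured member of 4 gene lists, ordered by size within each panel. Filled red points rose and filled blue points fell at an adjusted p under 0.05 (limma), open points did not pass, and bars are standard errors. In beta-oxidation 26 of 46 members are blue, whereas lipases hold 5 red and 7 blue points.

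Among genes of sugar and energy metabolism that passed, falls outnumbered rises, although most members of the larger lists did not pass. In the glyoxylate cycle and gluconeogenesis 7 of 12 members fell and 0 rose. The members include gpd-1 to gpd-4, and also mdh-1 and mdh-2, which are counted in the TCA cycle below as well. The gene *pck-1*, a phosphoenolpyruvate carboxykinase of gluconeogenesis, had 9.61, 9.74, 9.23 and 9.35 in the starved arrays, against 10.51, 10.19, 10.48 and 10.30 in the well-fed arrays, a difference of -0.89 (standard error 0.219, adjusted p = 0.00776). The pyruvate carboxylase gene *pyc-1* differed by -0.82 and the fructose-bisphosphatase gene *fbp-1* by -0.71 (adjusted p = 3.48e-05 and 1.6e-05). The gene of the glyoxylate cycle itself, *icl-1*, had 10.58, 11.33, 10.91 and 11.06 in the starved arrays, against 11.36, 11.38, 11.28 and 11.33 in the well-fed arrays and did not pass (adjusted p = 0.270). In glycolysis 6 of 15 fell, led by the lactate dehydrogenase gene *ldh-1* (-0.74), with *pgk-1* (-0.41) and *tpi-1* (-0.34). In the TCA cycle 8 of 27 fell and 0 rose, among them *sdha-1* (-0.50) of succinate dehydrogenase and *aco-1* (-0.61), an aconitase gene. Without well-fed replicate 4 the count was 5. Of 45 nuclear genes of the respiratory chain and ATP synthase 12 fell and 0 rose, with *gas-1* (-0.35) of complex I and *ucr-2.2* (-0.52) of complex III, the largest fall in the list. With the strain and replicate number as a block that count was 7. In the list on trehalose and glycogen 2 of 13 fell (15.4%), 1 rose (7.69%) and 10 did not pass, with a median of 0.02. These shares stand beside 14.3% and 10.9% of all genes.

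The genes of the mitochondrial genome, grouped after their values were seen, had larger differences than the nuclear genes of the respiratory chain. Of 12 measured, 5 fell (41.7%, beside 14.3% of all genes) and 0 rose, with a median of -0.42. The gene ND4 had 7.76, 7.43, 7.92 and 7.76 in the starved arrays, against 9.23, 8.97, 9.26 and 8.62 in the well-fed arrays, a difference of -1.3 (standard error 0.197, adjusted p = 0.000253), and CYTB had 11.67, 11.55, 11.85 and 11.73 in the starved arrays, against 12.41, 12.12, 12.22 and 12.12 in the well-fed arrays, a difference of -0.52 (standard error 0.120, adjusted p = 0.00533). The others that fell were ND6 (-1.29), ND4L (-1.23) and COX2 (-0.49), and COX2 passed only without well-fed replicate 2 or starved replicate 3 among the 8 fits that left out 1 mutant array (adjusted p of up to 0.132).

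Genes of amino acid breakdown fell more often than they rose, where 14.3% of all genes fell and 10.9% rose. Of 15 genes of tyrosine, tryptophan and branched-chain amino acid breakdown 9 fell and 0 rose. The gene *haao-1*, which encodes 3-hydroxyanthranilate dioxygenase of the kynurenine pathway, had 6.26, 5.84, 5.97 and 5.78 in the starved arrays, against 6.92, 7.10, 7.24 and 7.02 in the well-fed arrays, a difference of -1.11 (standard error 0.112, adjusted p = 8.46e-06), and *kynu-1*, kynureninase, differed by -0.64. In branched-chain breakdown *dbt-1* (-0.38), a subunit of the branched-chain keto acid dehydrogenase, and *mccc-1* (-0.34), of leucine breakdown, fell. Of 19 genes of the methionine cycle, transsulfuration and propionate breakdown 10 fell, a count of 6 without starved replicate 4. These included the cystathionine gamma-lyase gene *cth-1* (-0.69, with adjusted p of up to 0.0732 without well-fed replicate 3 or starved replicate 2 or 4) and, of propionate and cobalamin metabolism, *pccb-1* (-0.39), *mce-1* (-0.51) and *cbl-1* (-0.55). The member that rose was *pmt-1* (0.54), a phosphoethanolamine methyltransferase gene of phosphatidylcholine synthesis. Of 22 genes of ornithine, proline and glutamine metabolism 9 fell, with *alh-13* (-1.1), which makes the precursor of proline, and the polyamine gene *smd-1* (-0.67), and 2 rose, with *got-1.1* (0.62), an aspartate aminotransferase gene.

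Digestive and lysosomal enzymes fell more often than they rose, where 14.3% of all genes fell and 10.9% rose. Of 56 protease genes of gut and lysosome 22 fell and 9 rose. After *pcp-2* the smallest p belonged to *cpr-9*, a cathepsin B-like gene, with 8.32, 8.12, 8.29 and 8.01 in the starved arrays, against 9.52, 9.35, 9.41 and 9.21 in the well-fed arrays and a difference of -1.18 (standard error 0.115, adjusted p = 6.59e-06), to *asp-13* (-0.85), an aspartyl protease gene, and to *pcp-4* (-0.74). The trypsin-like gene *try-5*, known from seminal fluid of males, rose by 1.41. Of the vacuolar ATPase, the proton pump that acidifies lysosomes, 11 of 19 subunit genes fell and 0 rose, with a median of -0.26. The subunit gene *vha-4* had 12.27, 12.13, 12.19 and 12.16 in the starved arrays, against 12.65, 12.58, 12.62 and 12.55 in the well-fed arrays, a difference of -0.41 (standard error 0.0664, adjusted p = 0.000417), and *vha-1*, *vha-19*, *unc-32* and *vha-8* differed by -0.34, -0.34, -0.31 and -0.26. Of the intestinal marker genes 7 of 17 fell and 1 rose. They included the peptide transporter gene *pept-1* (-0.81), the acid phosphatase gene *pho-1* (-1.09) and *spl-1* (-0.77), of sphingosine phosphate breakdown. The mean level of this marker list ran from 8.92 to 9.09 in the starved arrays and from 9.18 to 9.27 in the well-fed arrays, and its part in the falls of gut enzymes was not tested.

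Autophagy genes rose more often than they fell, where 10.9% of all genes rose and 14.3% fell. Of 30 members 10 rose and 1 fell, with a median of 0.18. The selective autophagy receptor gene *sqst-1*, the worm p62, had 9.97, 10.80, 10.68 and 10.76 in the starved arrays, against 9.52, 9.07, 9.23 and 9.17 in the well-fed arrays, a difference of 1.31 (standard error 0.173, adjusted p = 8.79e-05). The gene *atg-16.2*, which helps to join LGG-1 to the growing membrane, had 8.42, 8.31, 8.49 and 8.51 in the starved arrays, against 7.72, 7.46, 7.44 and 7.30 in the well-fed arrays, a difference of 0.95 (standard error 0.143, adjusted p = 0.000236). The remaining rises were small, with *atg-7* (0.37), *atg-4.1* (0.38), *atg-9* (0.30), *lgg-2* (0.25), *epg-5* (0.25), *unc-51* (0.22), *atg-18* (0.21) and *hlh-30* (0.21, adjusted p = 0.0435), the TFEB-like regulator of lysosomal genes. The member that fell was *epg-3* (-0.22, adjusted p = 0.0506 without well-fed replicate 3). The calls of *unc-51*, *hlh-30*, *epg-5* and *atg-18* were each lost without well-fed replicate 4 or starved replicate 4 and without up to 5 other single mutant arrays, with adjusted p of up to 0.115. Without well-fed replicate 4 or starved replicate 4 the count of rises was 6, and with the 8 mutant arrays alone it was 6. The gene *bec-1*, the worm Beclin, differed by 0.11 and the LC3-like gene *lgg-1* by 0.18, and neither passed. The HLH-30 antagonist gene *mxl-3* had 9.19, 9.16, 8.61 and 8.56 in the starved arrays, against 9.66, 9.47, 10.06 and 9.67 in the well-fed arrays, and did not pass (adjusted p = 0.0718). Every starved array of the mutant lay below every well-fed one. The gene passed in 2 of the 16 fits that left out 1 array and in 0 of the 8 that left out a mutant array.

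Of 26 genes of TORC1, the Rag GTPases and AMP-activated kinase 5 rose (19.2%, beside 10.9% of all genes) and 1 fell (3.85%, beside 14.3%). The largest difference was that of *aakg-4*, a gamma subunit of the kinase, with 8.86, 8.61, 8.65 and 8.86 in the starved arrays, against 7.34, 7.07, 7.48 and 6.82 in the well-fed arrays and a difference of 1.57 (standard error 0.185, adjusted p = 3.37e-05). Other gamma subunits differed in direction, *aakg-3* at 0.46 and *aakg-2*, with 8.80, 8.56, 8.72 and 8.75 in the starved arrays, against 9.15, 9.38, 9.38 and 9.15 in the well-fed arrays, at -0.56 (adjusted p = 0.000515). The sestrin gene *sesn-1* (0.40) and *rict-1* (0.33), the Rictor of TORC2, rose, as did 1 of the 2 probe sets that carry the name *aakg-1*. The TORC1 kinase gene *let-363* differed by 0.03, its partner *daf-15* by 0.15, the Rag genes *raga-1* and *ragc-1* by 0.05 and -0.12, the catalytic AMPK gene *aak-2* by -0.02, and *smcr-8*, the partner of *alfa-1*, by 0.04, and none of these passed (adjusted p between 0.0980 and 0.863). Cyclic loess normalization gave 9 rises in this list and array weights gave 8.

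Of 15 genes from the receptor to DAF-16 5 rose (33.3%, beside 10.9% of all genes) and 1 fell (6.67%, beside 14.3%). The receptor gene *daf-2* had 10.48, 10.27, 10.53 and 10.46 in the starved arrays, against 9.86, 9.89, 9.71 and 9.71 in the well-fed arrays, a difference of 0.64 (standard error 0.0946, adjusted p = 0.000205). The gene *daf-16* had 11.48, 11.32, 11.52 and 11.50 in the starved arrays, against 10.89, 10.97, 10.84 and 10.82 in the well-fed arrays, a difference of 0.58 (standard error 0.0688, adjusted p = 3.59e-05). The receptor substrate gene *ist-1* rose by 0.73 and the kinase gene *sgk-1* fell by 0.43. The other rises were those of *pdk-1* (0.35, adjusted p = 0.0245), a kinase gene that acts between the receptor and DAF-16, and *pptr-1* (0.26, adjusted p = 0.0293), of a phosphatase, and each of these calls was lost in 5 of the 8 fits without 1 mutant array (adjusted p of up to 0.0762 and 0.0853). Without well-fed replicate 1, well-fed replicate 4 or starved replicate 3 the count of rises was 3. Of 40 insulin-like peptide genes, the ligands of DAF-2, 11 rose and 1 fell. The gene *ins-23* had 9.85, 9.95, 9.93 and 9.98 in the starved arrays, against 7.79, 8.65, 8.36 and 8.04 in the well-fed arrays, a difference of 1.72 (standard error 0.173, adjusted p = 8.13e-06), and *ins-20* had 5.41, 5.91, 6.23 and 6.47 in the starved arrays, against 4.40, 4.19, 4.05 and 4.33 in the well-fed arrays, a difference of 1.76 (standard error 0.247, adjusted p = 0.000133). The genes *ins-4* and *ins-2* rose by 0.98 and 0.48, and *ins-33* fell by 0.42 (adjusted p = 0.0516 without starved replicate 4). The count of rises was 7 without well-fed replicate 2, well-fed replicate 4 or starved replicate 2.

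Neuropeptide genes rose in 31 of 113 and fell in 2, with a median of 0.18, where 10.9% of all genes rose and 14.3% fell. The rises numbered 46 after further quantile normalization and 50 after cyclic loess. The smallest p belonged to *flp-10*, an FMRFamide-like peptide gene, with 11.03, 11.17, 11.04 and 11.06 in the starved arrays, against 10.45, 10.43, 10.38 and 10.51 in the well-fed arrays and a difference of 0.63 (standard error 0.0749, adjusted p = 3.45e-05), and *nlp-51*, *nlp-14* and *nlp-53* rose by 0.73, 0.70 and 0.55. The largest rise was that of *nlp-28* (0.90), of a group known as antimicrobial peptides of the epidermis. Markers of neurons did not share this direction, with 4 of 38 up (10.5%) and 10 down (26.3%). Among them *bas-1*, the aromatic amino acid decarboxylase of serotonin and dopamine synthesis, fell by 0.80 and *mec-7* and *mec-12*, the tubulins of touch neurons, fell by 0.50 and 0.59, whereas *tph-1*, tryptophan hydroxylase of serotonin synthesis, rose by 0.76 and *egl-3*, a proprotein convertase that matures neuropeptides, by 0.36. Of 276 nuclear hormone receptor genes 24 rose (8.70%) and 30 fell (10.9%), shares near or below those of all genes. The receptors *nhr-35*, *nhr-18* and *nhr-88* rose by 0.82, 1.15 and 0.66, *nhr-28* fell by 0.58 and *nhr-137* fell by 1.11.

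In genes of protein synthesis the shares that fell were near that of all genes, and few genes rose. Of 75 cytosolic ribosomal protein genes 13 fell and 0 rose, with a median of -0.11. The gene *rps-15A* had 8.84, 8.51, 8.83 and 8.65 in the starved arrays, against 9.26, 9.40, 9.26 and 9.60 in the well-fed arrays, a difference of -0.67 (standard error 0.105, adjusted p = 0.000317), and *rpl-22*, *rpl-29* and *rps-25* differed by -0.55, -0.45 and -0.41. The share that fell, 17.3%, was close to the 14.3% of all genes, and the count was 5 without starved replicate 4, 6 without well-fed replicate 2 or 4 and 7 without starved replicate 2. Of 70 mitochondrial ribosomal protein genes 12 fell and 1 rose, with *mrps-16* (-0.39) at the smallest p. The share that fell was 17.1%. That count was 7 after further quantile normalization and 5 after cyclic loess, and it was also 5 without starved replicate 2, 6 without starved replicate 4 or well-fed replicate 2 and 7 without well-fed replicate 1 or 4. Starved replicate 2 was also the array with the lowest median shift of both lists. Initiation and elongation factors fell in 8 of 39 (20.5%) and rose in 1, and aminoacyl-tRNA synthetases fell in 4 of 32 (12.5%) and rose in 1. Shares below that of all genes were found for ribosome biogenesis and RNA polymerases I and III, with 3 falls among 37 (8.11%), and for proteasome subunits, with 3 falls among 33 (9.09%), with 0 rises in either.

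Among small heat shock proteins, chaperones that hold unfolded proteins, 5 of 10 measured genes rose and 1 fell in each of the 8 fits without 1 mutant array as in the full set. The genes hsp-16.1, hsp-16.11, hsp-16.48 and hsp-16.49 were not matched to a probe set of a single gene and were not counted. The gene *hsp-12.6*, known as a target of DAF-16, had 7.15, 7.37, 7.70 and 7.43 in the starved arrays, against 5.07, 4.96, 5.04 and 4.60 in the well-fed arrays, a difference of 2.50 (standard error 0.245, adjusted p = 6.97e-06). The genes *hsp-43* and *sip-1* rose by 0.79 and 0.60. The gene *hsp-12.1* had 6.70, 6.42, 6.25 and 6.50 in the starved arrays, against 7.46, 7.58, 7.52 and 7.64 in the well-fed arrays, a difference of -1.08 (standard error 0.112, adjusted p = 1.05e-05). The larger chaperones of the HSP70, HSP90, CCT and J protein families had 5 falls and 0 rises among 49, a share of 10.2% below the 14.3% of all genes (8 falls with array weights and 9 with an intensity trend), with *dnj-7* (-0.59) and the endoplasmic reticulum chaperone gene *hsp-3* (-0.31). In the list of superoxide dismutases, catalases, glutathione peroxidases and metallothioneins 5 of 25 rose (20%, beside 10.9% of all genes) and 1 fell (4%). After *mtl-1* they included *gpx-6*, a glutathione peroxidase gene, with 6.60, 6.11, 6.93 and 6.84 in the starved arrays, against 4.95, 5.23, 4.97 and 5.01 in the well-fed arrays and a difference of 1.58 (standard error 0.175, adjusted p = 2.04e-05), and *mtl-2*, the other metallothionein gene, with 6.70, 7.83, 7.91 and 7.17 in the starved arrays, against 6.24, 6.29, 6.20 and 6.47 in the well-fed arrays and a difference of 1.1 (standard error 0.198, adjusted p = 0.000902). The member that fell was *gpx-1* (-0.54).

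Genes of detoxification enzymes also fell more often than they rose. Of 67 UDP-glucuronosyltransferase genes, whose products attach sugars to foreign compounds, 28 fell and 8 rose. The gene *ugt-47* had 9.50, 9.06, 9.11 and 9.14 in the starved arrays, against 10.34, 10.41, 10.38 and 10.40 in the well-fed arrays, a difference of -1.18 (standard error 0.0974, adjusted p = 1.38e-06), *ugt-17*, *ugt-6*, *ugt-62* and *ugt-64* differed by -1.27, -1.02, -1.45 and -0.96, and *ugt-18* rose by 1.03. Of 75 cytochrome P450 genes 18 fell (24.0%, beside 14.3% of all genes) and 11 rose (14.7%, beside 10.9%). The rises numbered 6 without well-fed replicate 2 or 4 and 7 without well-fed replicate 3. In the subfamily 35, separated after values were seen, 9 of 10 fell. The gene *cyp-35A3* had 5.54, 5.59, 5.22 and 4.94 in the starved arrays, against 7.40, 6.86, 7.18 and 7.31 in the well-fed arrays, *cyp-35A2* differed by -1.42 and *cyp-35B2* by -0.71, and outside it *cyp-14A2* differed by -1.39 and *cyp-32B1* rose by 0.94. Of 48 glutathione S-transferase genes 17 fell and 5 rose. The gene *gst-4*, widely used as a reporter of the oxidative stress factor SKN-1, had 5.46, 5.01, 4.93 and 5.41 in the starved arrays, against 6.59, 6.31, 6.78 and 6.59 in the well-fed arrays, a difference of -1.37 (standard error 0.161, adjusted p = 3.31e-05), *gst-13* and *gst-26* differed by -0.94 and -1.0, and *gst-15* rose by 1.12. Of 49 ABC transporter genes 20 fell and 3 rose, with *pgp-2* (-0.90), known from lysosome-related organelles of the gut, *haf-9* (-0.61), of the same organelles, and *pmp-1* (-0.93), and with *haf-2* (0.75) among the rises.

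Of 247 C-type lectin genes, a family with members known from defence, 46 fell (18.6%, beside 14.3% of all genes) and 26 rose (10.5%, beside 10.9%), shares near those of all genes. The gene *clec-82* had 7.97, 7.22, 7.83 and 7.63 in the starved arrays, against 5.45, 5.69, 5.34 and 5.36 in the well-fed arrays, a difference of 2.2 (standard error 0.167, adjusted p = 6.02e-07), and *clec-266*, *clec-196* and *clec-264* rose by 2.28, 1.85 and 1.66. In the opposite direction *clec-80* had 7.93, 7.76, 7.64 and 7.62 in the starved arrays, against 9.16, 9.08, 9.16 and 9.07 in the well-fed arrays, a difference of -1.38 (standard error 0.0894, adjusted p = 1.4e-07). Lysozymes, saposin-like proteins, thaumatins and antimicrobial peptides rose in 23 of 102 (22.5%) and fell in 12 (11.8%). The invertebrate lysozyme gene *ilys-2* had 6.24, 7.05, 6.70 and 7.46 in the starved arrays, against 4.58, 4.42, 4.24 and 4.48 in the well-fed arrays, a difference of 2.43 (standard error 0.354, adjusted p = 0.000182). The saposin-like genes *spp-8* and *spp-6* rose by 1.1 and 1.43 and the caenacin gene *cnc-6* by 1.72, one of 6 of 11 caenacin genes that rose, a family counted after values were seen. The lysozyme gene *lys-2* differed by -1.18. Among the genes named dod, dct and irg, found by their responses to DAF-16 or to infection, 12 of 33 fell and 4 rose. The largest fall was that of *dod-17* (-1.32) and the smallest p that of *irg-4* (-0.89). The gene *irg-2* had 7.09, 8.18, 7.84 and 8.0 in the starved arrays, against 5.54, 5.60, 5.63 and 5.36 in the well-fed arrays, a difference of 2.24 (standard error 0.411, adjusted p = 0.00106), *dct-8* had 5.70, 6.90, 6.03 and 6.79 in the starved arrays, against 4.90, 4.71, 4.52 and 4.26 in the well-fed arrays, a difference of 1.76 (standard error 0.296, adjusted p = 0.000579), and *dct-1* rose by 0.45.

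The large families of F-box, MATH and BATH genes, whose products choose proteins for ubiquitin ligases, rose in 80 of 455 members and fell in 13. These shares of 17.6% and 2.86% stand beside 10.9% and 14.3% of all genes. The list was read at low levels, with a median log2 value of 4.20 in well-fed mutant worms. In the lowest quartile of all genes by mean level 6.76% rose and 2.95% fell. After *fbxa-162* the smallest p belonged to *fbxa-163*, with 5.78, 5.55, 5.97 and 5.69 in the starved arrays, against 3.65, 3.62, 3.55 and 3.61 in the well-fed arrays and a difference of 2.14 (standard error 0.154, adjusted p = 3.58e-07), and to *fbxa-48*, with 7.08, 6.78, 7.25 and 7.05 in the starved arrays, against 4.76, 4.64, 4.62 and 4.99 in the well-fed arrays and a difference of 2.29 (standard error 0.189, adjusted p = 1.44e-06). Skp1-related genes, the partners of F-box proteins in these ligases and counted after values were seen, rose in 9 of 20 and fell in 0. Chemoreceptor-like genes were read at low levels too, with a median log2 value of 3.67 in well-fed mutant worms beside 5.86 over all genes. They rose in 144 of 1299 (11.1%, beside 10.9% of all genes) and fell in 25 (1.92%, beside 14.3%). Beside the 6.76% and 2.95% of the lowest quartile, the share that rose was higher and the share that fell was slightly lower. When genes of low mean (under 4.23, the first quartile) were left out, 56 rose and 15 fell, and without starved replicate 4 15 fell. The gene *str-168* had 4.58, 4.45, 4.60 and 4.29 in the starved arrays, against 5.39, 5.40, 5.70 and 5.47 in the well-fed arrays, a difference of -1.01 (standard error 0.0913, adjusted p = 3.22e-06), and *srbc-20* and *srv-4* rose by 0.98 and 0.97. Nematode-specific peptides and transthyretin-like genes rose in 20 of 85 (23.5%) and fell in 9 (10.6%), the falls numbering 5 without starved replicate 4. Of these the transthyretin-like genes *ttr-5*, *ttr-23* and *ttr-50* rose by 0.98, 1.26 and 0.94.

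**Figure D4:**
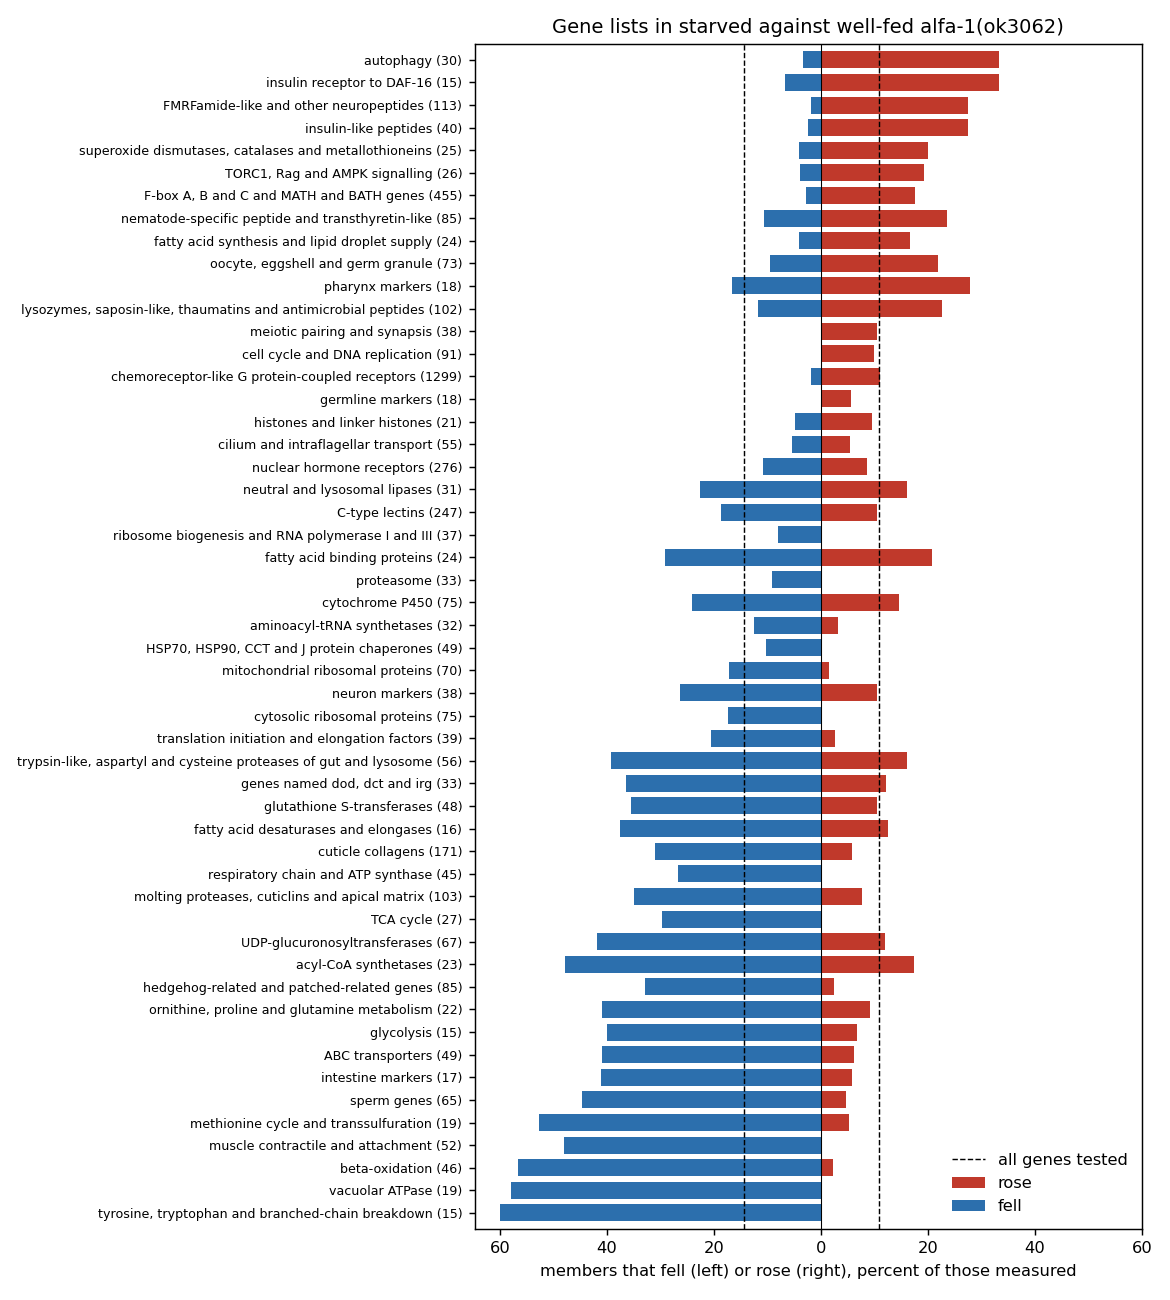
Percent of measured members that rose (red, to the right) or fell (blue, to the left) at an adjusted p under 0.05 (limma) in starved against well-fed *alfa-1(ok3062)* worms, for the gene lists with at least 15 measured members (number in brackets). Dashed lines mark the shares over all genes, 10.9% for rises and 14.3% for falls. The longest blue bars are those of amino acid breakdown, the vacuolar ATPase and beta-oxidation.

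Genes of the cuticle and of molting fell more often than they rose, where 14.3% of all genes fell and 10.9% rose. Of 171 collagen genes 53 fell and 10 rose. The gene *col-54* had 5.31, 5.71, 5.61 and 5.76 in the starved arrays, against 7.22, 6.79, 6.64 and 6.54 in the well-fed arrays, a difference of -1.2 (standard error 0.178, adjusted p = 0.000214), and *col-47* fell by 0.59, whereas *col-95*, with 7.06, 7.05, 6.92 and 7.10 in the starved arrays, against 5.81, 5.89, 5.91 and 5.98 in the well-fed arrays, rose by 1.14, *dpy-14* by 1.25 and *col-42* by 0.77. Hedgehog-related and patched-related genes, which act in the epidermis during molts, fell in 28 of 85 and rose in 2. The gene *hog-1* differed by -1.18, *grl-10* by -0.93, *grl-22* by -0.91 and *grd-5* by -0.66, and *grd-3* rose by 0.46. Molting proteases, cuticlins and genes of the apical matrix fell in 36 of 103 and rose in 8. The astacin protease genes *nas-22*, *nas-8* and *nas-6* differed by -0.89, -1.07 and -1.16, *nas-9* rose by 1.42, and *phy-2*, a prolyl hydroxylase that modifies collagen, had 8.95, 9.21, 8.59 and 8.74 in the starved arrays, against 10.40, 9.78, 10.28 and 10.21 in the well-fed arrays, a difference of -1.29 (standard error 0.176, adjusted p = 0.000109). The rises in that list numbered 4 or 5 without starved replicate 2 or 4 or well-fed replicate 3 or 4. Many of these genes are known to oscillate with the molting cycle, and whether well-fed and starved worms were at the same point of the cycle was not tested.

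Of 52 genes of muscle contraction and attachment 25 fell and 0 rose, with a median of -0.21. The ryanodine receptor gene *unc-68*, which releases calcium, had 9.17, 9.18, 9.18 and 9.11 in the starved arrays, against 9.80, 9.87, 9.77 and 9.79 in the well-fed arrays, a difference of -0.65 (standard error 0.0592, adjusted p = 3.53e-06). The integrin gene *pat-2* differed by -0.64, its partner *pat-4*, an integrin-linked kinase, by -0.54, *unc-98*, of the attachment complex, by -0.68 and the troponin gene *tni-1* by -0.94. Of 12 further muscle markers 0 passed in either direction, the myosin gene *myo-3* differing by -0.18 (adjusted p = 0.0968). Their mean level ran from 9.77 to 9.88 in starved and from 9.86 to 9.89 in well-fed arrays. Of 18 pharynx markers 5 rose (27.8%, beside 10.9% of all genes) and 3 fell (16.7%, beside 14.3%). The gland gene *phat-5* rose by 1.49 and the organ identity gene *pha-4* by 0.48, and *phat-1* and *phat-2* differed by -0.59 and -0.55. Of 13 hypodermis and seam markers 2 rose (15.4%) and 1 fell (7.69%), with *ceh-16* (0.53) of the seam and the collagen gene *rol-6* (-0.62).

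Sperm genes fell more often than they rose, and oocyte genes rose more often than they fell. Of 65 sperm genes 29 fell and 3 rose. The gene *spe-41*, of a sperm calcium channel, fell by 0.52 and *spe-4*, a presenilin-like gene, by 0.48, and *sss-1* had 8.10, 7.42, 8.15 and 7.37 in the starved arrays, against 8.98, 8.68, 8.69 and 8.81 in the well-fed arrays, a difference of -1.03 (standard error 0.184, adjusted p = 0.000867), whereas *spe-36* rose by 2.34. The count of falls was 15 without starved replicate 2 and 17 without starved replicate 4 or well-fed replicate 4, and it was 21 after further quantile normalization and 16 after cyclic loess. Of 73 oocyte, eggshell and germ granule genes 16 rose (21.9%, beside 10.9% of all genes) and 7 fell (9.59%, beside 14.3%). The eggshell gene *perm-2* had 11.37, 11.1, 11.39 and 11.25 in the starved arrays, against 10.25, 10.68, 10.60 and 10.46 in the well-fed arrays, a difference of 0.78 (standard error 0.113, adjusted p = 0.000177), *cpg-24* and *cpg-8* rose by 0.62 and 0.49, and the chondroitin proteoglycan genes *cpg-9* and *cpg-19* differed by -1.17 and -1.21. The rises numbered 9 or 10 without well-fed replicate 1 or starved replicate 1, 3 or 4, and the falls 4 without well-fed replicate 1 or 4. Meiosis genes rose in 4 of 38 (10.5%) and cell cycle genes in 9 of 91 (9.89%), with 0 falls in either list. These shares lay near the 10.9% of all genes as deposited and after median centring only, since further quantile normalization gave 6 meiosis and 19 cell cycle genes that rose and cyclic loess 9 and 23. Array weights gave 18 cell cycle genes that rose and an intensity trend 15. The count of meiosis genes was 1 or 2 without well-fed replicate 1, 3 or 4 or starved replicate 3 or 4, and that of cell cycle genes 14 without starved replicate 2. Of the yolk proteins, made in the intestine of adult hermaphrodites for oocytes, *vit-1* and *vit-4* fell while *vit-2*, with 12.28, 12.13, 12.41 and 12.2 in the starved arrays, against 11.83, 11.94, 11.80 and 11.88 in the well-fed arrays, rose by 0.39 and *vit-5*, with 12.46, 12.39, 12.69 and 12.42 in the starved arrays, against 12.1, 12.19, 12.06 and 12.1 in the well-fed arrays, by 0.38. The genes *vit-1* and *vit-2*, and vit-3, *vit-4* and *vit-5*, are near-identical copies, so these values are uncertain as to which copy was read. The probe sets of *vit-2*, *vit-5* and *perm-2* were above 10 in every mutant array, in worms labelled as larvae. Germline markers rose in 1 of 18 (5.56%) and fell in 0, *glh-1* differing by -0.31 without passing (adjusted p = 0.0523).

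By kind of gene, 2791 rises comprised 2117 of 18812 protein-coding genes (11.3%), 606 of 5972 genes annotated as non-coding RNA (10.1%) and 55 of 609 pseudogenes (9.03%). Falls comprised 3227 protein-coding genes (17.2%), 341 non-coding genes (5.71%) and 70 pseudogenes (11.5%), so that non-coding genes rose more often than they fell. Calls varied with signal level too. By mean level over all arrays, 6.76% of the lowest quartile of genes rose and 2.95% fell. In quartiles 2, 3 and 4, 14.6%, 11.1% and 11.3% rose and 9.93%, 26.1% and 18.3% fell. Whether the level of non-coding genes bears on their shares was not tested. By chromosome in the assembly WBcel235, the share that rose was highest on chromosome V, with 842 of 6085 genes (13.8%), and lay between 8.57% and 11.5% on the other nuclear chromosomes. The share that fell was lowest there (11.6%) and highest of the nuclear chromosomes on chromosome IV (16.7%).

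The same comparison in N2 gave 2759 rises (10.8%) and 2948 falls (11.6%). Of the 6440 genes called in the mutant, 3700 (57.5%) were also called in N2, which is 64.8% of the 5707 called there, and all 3700 had the same direction. Of the genes called in the mutant, 6217 (96.5%) had the same sign of difference in N2. Across genes, which are not independent replicates, the differences in the strains had a Pearson correlation of 0.808 and a Spearman correlation of 0.722, with no arrays shared between them. Whether a difference was larger in the mutant was tested as the interaction. Of 25498 genes 0 passed (0.0%), with 1641 at an unadjusted p under 0.05 (6.44%) and a smallest adjusted p of 0.735 from limma, so no gene that was called in only 1 strain can be said to be particular to it. The median standard error of the interaction was 0.171, against 0.121 for the difference within the mutant.

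**Figure D5:**
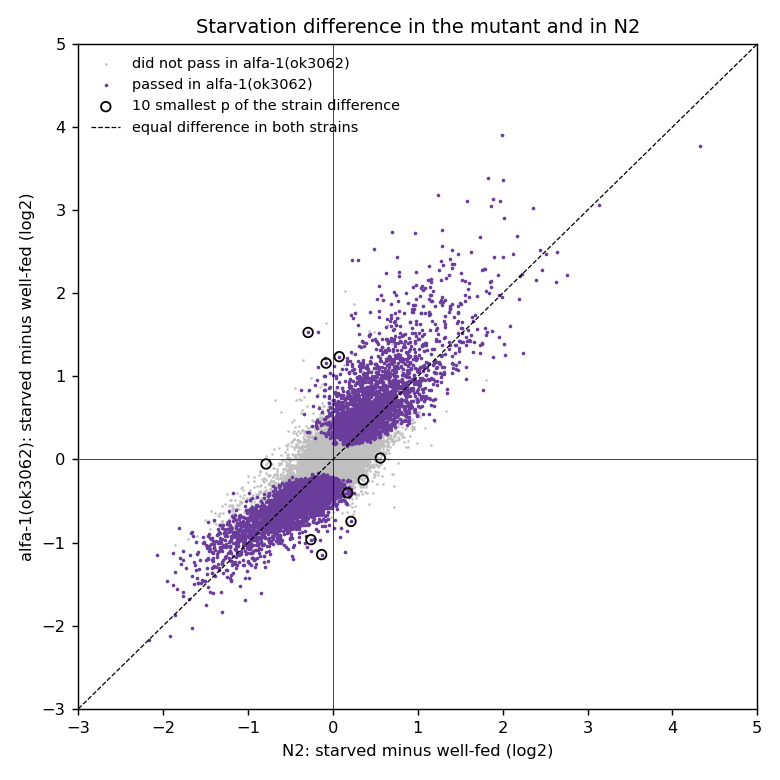
Log2 difference of starved minus well-fed worms in *alfa-1(ok3062)* (y axis) and in N2 (x axis) for 25498 genes. Purple points passed in the mutant (adjusted p under 0.05, limma), the dashed line marks equal differences, and open circles mark the 10 genes of smallest interaction p, none of which passed (adjusted p = 0.735). Of the 6440 genes that passed in the mutant, 6217 have the same sign in N2.

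In 10 of the 59 lists a count of rises or falls that reached 10 in either strain differed by 2 times or more between the strains, a rule set after the counts were seen, and their values are given side by side as a description. Sperm genes fell in 29 of 65 in the mutant and in 7 in N2, with medians of -0.28 and -0.15, and after cyclic loess in 16 and 11. Cell cycle genes rose in 9 of 91 in the mutant and in 33 in N2, with medians of 0.09 and 0.22, and after cyclic loess in 23 and 36. Meiosis genes rose in 4 of 38 in the mutant and in 13 in N2, and after cyclic loess in 9 and 18. Oocyte genes rose in 16 of 73 in the mutant and in 39 in N2, but after cyclic loess in 21 and 36. Cytosolic ribosomal protein genes fell in 13 of 75 in the mutant and in 2 in N2, and after cyclic loess in 11 and 4. Mitochondrial ribosomal protein genes fell in 12 of 70 in the mutant and in 2 in N2, but after cyclic loess in 5 and 8, and respiratory chain genes in 12 of 45 and in 6, but after cyclic loess in 8 and 11. Insulin-like peptide genes rose in 11 of 40 in the mutant and in 5 in N2, and after cyclic loess in 11 and 4. Genes of TORC1 and AMP-activated kinase rose in 5 of 26 and in 10, but after cyclic loess in 9 and 10. Chemoreceptor-like genes rose in 144 of 1299 in the mutant and in 56 in N2, and after cyclic loess in 132 and 58. They were read at low levels, and rises differed likewise among all genes of low level. In the lowest quartile by mean level, 431 of 6375 genes rose in the mutant (6.76%) and 168 in N2 (2.64%). The interaction passed in 0 genes of any of these lists. Molting genes fell in 36 of 103 in the mutant and in 55 in N2, beta-oxidation fell in 26 of 46 in the mutant and 22 in N2, the vacuolar ATPase in 11 and 12 of 19, muscle genes in 25 and 28 of 52, and neuropeptide genes rose in 31 and 31 of 113.

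Of the 20 largest rises in the mutant, 12 also rose in N2, and of the 20 largest falls, all 20 also fell there. The differences in N2 were 4.32 for *mtl-1*, 3.14 for *hil-1*, -2.17 for *acs-2* and -1.86 for *cyp-35A3*, beside 3.77, 3.07, -2.17 and -1.87 in the mutant. For *fbxa-162* the difference was 3.05 in the mutant and 1.86 in N2, and for *vit-1* it was -1.84 and -1.31 (adjusted p of the interaction from limma = 0.735 and 0.735). The rises with a wide spread among starved mutant arrays included those with the smallest counterpart in N2. For *nspe-1* the difference was 2.73 in the mutant and 0.96 in N2, and for *C49G7.10* it was 2.53 and 0.48. The 10 genes of smallest interaction p were *Y19D10B.4*, *F23B2.7*, *C45B2.3*, *ugt-64*, *F47B10.3*, *C05B5.17*, *H03A11.10*, *W07A12.8*, *R02F2.4* and *T20D4.12*, each at an adjusted p of 0.735 from limma. Of these *F23B2.7* had 4.67, 4.58, 4.24 and 4.39 in the starved arrays, against 5.62, 5.96, 5.45 and 5.42 in the well-fed arrays of the mutant, a difference of -1.14, against -0.13 in N2. The gene *C45B2.3* had 7.96, 8.06, 7.04 and 8.65 in the starved arrays, against 6.69, 6.17, 6.47 and 6.26 in the well-fed arrays of the mutant, a difference of 1.53, against -0.29 in N2. For *ugt-64* the difference was -0.96 in the mutant and -0.26 in N2, and for *C05B5.17* it was 1.24 and 0.07. These values describe the genes that differed most between the strains relative to their spread and are not called.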

How the data were processed

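Whole worms of *alfa-1(ok3062)* and N2, starved or well-fed, were measured on Affymetrix C. elegans arrays, 4 per group. The deposited values are on a log2 scale, 1 per probe set, with RMA and Partek named in the submitters' processing notes (versions: not given in the sources used here). Since RMA matches the arrays by quantiles, a change shared by most genes would have been removed. Values ran from 1.84 to 14.2, and with no scanner intensities the precision is limited by the number of arrays.

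Of 29317 probe sets, 25546 had 1 gene in the platform table, 646 several and 3125 were not listed. Names were matched to RefSeq (WBcel235) for 25495. For 37 genes with several probe sets the one of highest mean was used, leaving 25498 genes, of which 40 share a symbol with another. Limma 3.58.1 in R 4.3.3 was fitted with 4 group means over all 16 arrays (12 residual degrees of freedom) with Benjamini-Hochberg adjustment over all genes. The fit was tested on simulated data. Python 3.11.15 with pandas 2.3.3, numpy 2.4.6 and matplotlib 3.10.9 made counts and figures. A total of 59 gene lists, from general knowledge of worm genes, was counted with no set test. Listed names that were not matched to a probe set of a single gene were left out of the counts. The members and lists were chosen with earlier results of these data known.

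Genes named were *alfa-1*, the 20 genes that rose most and the 20 that fell most where the mutant groups did not overlap, in each list the 4 members of smallest p and the largest rise and fall, members of the lists on TORC1 and AMPK, autophagy, lipases, beta-oxidation and gluconeogenesis, and the 10 genes of smallest interaction p. Any other gene, among them those of the mitochondrial genome, was chosen after its values were seen, as were 12 further families. Alternatives were other normalizations, filters, thresholds and fits, an unpaired t-test, a replicate block and each array left out. The methods name that t-test for the study in general and name no test for the arrays. A planned motif search in promoters was not run, since promoter sequences were not used here. No value column was left without a sample.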

Additional observations from a re-analysis of the deposited data

Results flagged for a closer look

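For each gene named here, the 4 starved and the 4 well-fed mutant arrays were searched for 1 array far from the other 3, its gap to the nearest of them over the whole range being above Dixon's critical value. Of 600 such groups in 300 genes, 21 (3.5%) held such an array, where chance gives about 5%. Starved replicate 1 was low for *acs-3* at 6.90 (others 7.31 to 7.38), low for *pha-4* at 9.60 (others 9.92 to 9.96), low for *phat-2* at 8.64 (others 8.91 to 8.93), low for *sqst-1* at 9.97 (others 10.68 to 10.80) and low for *srt-42* at 6.72 (others 7.84 to 8.04). Starved replicate 2 was low for *atg-18* at 11.95 (others 12.03 to 12.04), low for *ech-7* at 8.80 (others 9.17 to 9.23), low for *hsp-3* at 11.11 (others 11.23 to 11.25) and low for *ttr-50* at 6.27 (others 6.58 to 6.58). Starved replicate 3 was high for *dct-1* at 10.89 (others 10.72 to 10.73), high for *lgg-1* at 12.86 (others 12.62 to 12.65) and high for *ugt-17* at 7.09 (others 6.57 to 6.65). Starved replicate 4 was low for *lbp-3* at 9.34 (others 9.55 to 9.58). Well-fed replicate 1 was low for *K02F3.13* at 5.58 (others 6.16 to 6.26). Well-fed replicate 2 was high for *Y19D10B.4* at 4.0 (others 3.78 to 3.80), low for *acdh-6* at 8.08 (others 8.54 to 8.60), high for *cbl-1* at 7.70 (others 7.50 to 7.53) and low for *cpg-19* at 8.94 (others 9.46 to 9.56). Well-fed replicate 4 was low for *R11A5.3* at 5.03 (others 5.15 to 5.17), low for *Y17D7B.10* at 7.32 (others 7.70 to 7.76) and low for *atgl-1* at 10.20 (others 10.41 to 10.44). Of the 3771 probe sets with no single gene, which enter no comparison above, 423 were higher and 261 lower in starved than in well-fed mutant worms at an adjusted p under 0.05 in a limma fit of these probe sets alone, with differences of up to 3.32 and down to -1.87. No gene passed the test of a difference between the strains' responses (limma, smallest adjusted p = 0.735).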

How the results depend on the processing

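For the mutant, the counts with other settings than those below stayed within 1.5 times of 2791 rises and 3649 falls, and every call of the 6440 kept its sign in each alternative in which the gene was tested. A fold of at least 1.5 beside the adjusted p left 1401 rises and 1337 falls, a fold of at least 2 left 560 and 234, and an adjusted p under 0.01 left 1482 and 2006. Without the genes under the median mean, which tests fewer genes, 1696 rose. In N2 a fold of 1.5 left 913 rises and 1319 falls, and a fold of 2 left 279 and 429. An adjusted p under 0.01 left 1301 and 1763 in N2, and an unadjusted p under 0.05 gave 4477 rises there. The unpaired t-test after Benjamini-Hochberg adjustment gave 1456 rises and 1586 falls in N2. That test gave 2054 rises and 2878 falls in the mutant, and 3903 and 4911 at an unadjusted p under 0.05. The difference between the strains passed for 0 genes in every fit, while 695 had an unadjusted p under 0.05 with the mutant higher and 946 with it lower. With each of the 16 arrays left out in turn, the mutant had 2143 to 3085 rises and 2847 to 4008 falls and N2 1935 to 2984 rises and 2413 to 3078 falls. The lower *alfa-1* in the mutant stayed between -1.95 and -1.6 in all fits run.

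Replicate numbers were not taken to pair the samples: deviations of same-numbered starved and well-fed arrays correlated at -0.141 to -0.0442 in the mutant and at -0.0661 to 0.112 in N2, and those of starved mutant and starved N2 arrays at -0.472 to 0.149. With the number as a replicate block over all arrays 2551 genes rose and 3347 fell in the mutant, and with strain and number as a replicate block 2365 and 3090. In N2 these blocks gave 2448 and 1935 rises and 2759 and 2521 falls, and 0 genes in the interaction.

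Some values near 0 that passed in no fit changed sign. Further quantile normalization gave 0.00606 for *aak-2*, 0.00103 for *alfa-1* and 0.00827 for *cpt-1*, and median centring 0.00436 for *cpt-1*. With 1 array left out, *R02F2.4* ran from -0.0212 to 0.0744, *aak-2* from -0.0609 to 0.0188, *cpt-1* from -0.092 to 0.0707, *let-363* from -0.00282 to 0.0443 and *smcr-8* from -0.00207 to 0.0788. Of 3894 counts of list members under an alternative, 610 moved by more than 1.5 times or to or from 0, among them falls of F-box and related genes (20 after quantile normalization, against 13), rises of neuron markers (7 after cyclic loess, against 4) and, with an intensity trend, falls of proteasome (5 against 3) and ribosome biogenesis genes (7 against 3). The precision is limited by 4 arrays per group, a median standard error of 0.121 for a difference and of 0.171 for the interaction, and by the lack of a measured background, so low levels such as those of chemoreceptor-like genes have no known distance from it. The promoter search was not run.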

Other observations

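Further gene families, all counted after their values were seen and given as values without a test of the family, moved in starved *alfa-1(ok3062)* worms. Of 26 neprilysin-like metallopeptidase genes, whose products cut peptides outside the cell, 17 fell and 1 rose, among the falls *nep-23* (-0.69) and *nep-10* (-0.80), beside 14.3% of all genes that fell. In N2 15 fell and 0 rose. Of 34 carboxylesterase genes 17 fell and 1 rose in the mutant, with *cest-2.1* (-1.03) and *cest-2.2* (-0.94), and 11 fell and 3 rose in N2. Of 7 cathepsin A-like carboxypeptidase genes 6 fell in the mutant, with *ctsa-4.1* (-1.05) and *ctsa-3.1* (-0.92), and 5 fell in N2. Of the chitinase genes, given next for the mutant, 2 rose and 4 fell in N2. All 6 chitinase genes measured passed the test, *cht-1* rising by 1.85 with 7.38, 8.60, 8.27 and 8.22 in the starved arrays, against 6.44, 6.19, 6.26 and 6.19 in the well-fed arrays, and *cht-4* and *cht-5* differing by -1.24 and -0.93. Of 17 T-box transcription factor genes 7 rose (41.2%, beside 10.9% of all genes) and 0 fell in the mutant, and 5 rose in N2. The gene *tbx-8*, which acts in the embryonic epidermis, had 6.19, 7.34, 6.89 and 6.91 in the starved arrays, against 4.65, 4.54, 4.40 and 4.19 in the well-fed arrays, a difference of 2.39 (standard error 0.413, adjusted p = 0.000702), and *tbx-9* rose by 0.52. In the nspe family 6 of 8 rose in the mutant and 2 in N2, with medians of 0.94 and 0.59, and 0 passed the interaction. These are near-identical copies, as said above, so it is uncertain how many separate genes these counts stand for.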
